A study of Mus musculus with 6 samples.

Results

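The Hox genes of the 4 mouse clusters, HoxA, HoxB, HoxC and HoxD, were followed through a chromatin immunoprecipitation and sequencing (ChIP-Seq) experiment on phosphorylated Smad2 (pSmad2). Members were the genes named Hoxa, Hoxb, Hoxc or Hoxd plus a number. Of 22208 protein-coding genes, 38 are described here, 10 in HoxA, 10 in HoxB, 9 in HoxC and 9 in HoxD. The cells were the mouse embryonic stem (ES) cell line E14 TG2A. All cultures were first held for 6 h in 10 μM SB-431542 (SB), an inhibitor of the Nodal/Activin type I receptors, in serum-replacement medium without LIF. They then received for 18 h either 25 ng/ml Activin (high signaling), a 1/5000 dilution of the vehicle DMSO (endogenous signaling) or 10 μM SB (low signaling). For each treatment there was 1 library from DNA isolated with a rabbit antibody to C-terminally phosphorylated Smad2 and 1 input library from chromatin that was not immunoprecipitated, so no treatment had a replicate. Every test below compares the tags of 2 libraries, not the conditions, and its p-values and intervals cover counting error only. The files hold no expression values, so the cell type could not be checked against marker genes here. With chromatin from many cells, more bound chromosomes and more protein per bound chromosome cannot be told apart.

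The ChIP libraries held 7805150 to 10537724 tags and the input libraries 9786787 to 11913742 after counting 1 tag per position and strand, and SB was the smallest of each kind. Tags that shared a position with another were 19.9% to 24.6% of the ChIP tags and 5.64% to 6.94% of the input tags. All ratios below are scaled by these totals.

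Hox proteins are homeodomain transcription factors that give cells their position along the body axis. Their genes lie side by side in the order in which they act along that axis, with paralog groups numbered from the anterior end to the posterior end. In ES cells the clusters are known as GC-rich domains covered by Polycomb proteins and mostly silent. Nodal and Activin bind receptors that phosphorylate Smad2, which enters the nucleus with Smad4 and binds DNA together with partners such as FoxH1. Smad proteins recognize the short motif CAGA, often within CAGAC, and FoxH1 recognizes AATCCACA.

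The 3 deposited peak lists placed 8 peaks within 5 kb of the clusters, 3 of 5094 in the Activin list, 3 of 7423 in the DMSO list and 2 of 4759 in the SB list. Listed positions at most 3000 bp from the next were joined, which gave 5 sites, 4 in HoxB and 1 in HoxC. HoxA and HoxD held none. Over the 525 kb searched this came to 5.71 listed peaks per Mb for Activin, 5.71 for DMSO and 3.81 for SB, beside 1.93, 2.81 and 1.80 per Mb of the genome. The sequences of 3 of these sites are shown because the ChIP difference between treatments rested on the first pair and the third was listed for Activin alone. Each is 300 bases of the plus strand of mm9 centred on the highest point of the 3 ChIP libraries together, at chr11:96203332-96203631 inside Hoxb3, chr11:96051539-96051838 before Hoxb13 and chr15:102786258-102786557 inside Hoxc11. Capitals mark CAGA, its reverse complement TCTG, and AATCCACA.
Hoxb3 site: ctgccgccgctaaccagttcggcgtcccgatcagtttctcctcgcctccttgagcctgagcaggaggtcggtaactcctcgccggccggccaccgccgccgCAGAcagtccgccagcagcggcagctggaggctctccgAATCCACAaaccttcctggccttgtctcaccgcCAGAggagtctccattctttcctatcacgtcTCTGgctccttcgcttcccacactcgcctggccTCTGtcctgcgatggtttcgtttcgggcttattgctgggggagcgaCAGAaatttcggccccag
Hoxb13 site: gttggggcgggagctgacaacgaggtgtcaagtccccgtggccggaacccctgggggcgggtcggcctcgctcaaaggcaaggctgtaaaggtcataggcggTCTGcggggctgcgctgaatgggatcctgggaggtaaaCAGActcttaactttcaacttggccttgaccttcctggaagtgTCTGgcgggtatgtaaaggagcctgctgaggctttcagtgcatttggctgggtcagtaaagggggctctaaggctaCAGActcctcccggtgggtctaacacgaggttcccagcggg
Hoxc11 site: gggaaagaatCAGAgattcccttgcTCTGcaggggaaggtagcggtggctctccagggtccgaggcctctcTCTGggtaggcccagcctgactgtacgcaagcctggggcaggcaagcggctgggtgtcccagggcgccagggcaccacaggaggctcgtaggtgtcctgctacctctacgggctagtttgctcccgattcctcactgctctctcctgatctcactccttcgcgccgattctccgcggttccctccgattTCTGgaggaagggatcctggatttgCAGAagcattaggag

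The Hoxb3 site held 5 copies of CAGA on either strand, the Hoxb13 site 4 and the Hoxc11 site 5. Such numbers were common, since 35.2% of all 8518777 genome windows of 300 bases held at least 5 copies and 53.1% at least 4. The longer CAGAC, which contains CAGA, occurred 4 times on either strand in the Hoxb13 window, a number reached by 1.08% of all windows and by 3.51% of those within 2.5 points of its GC content of 59.7%. The Hoxb3 window held CAGAC 1 time, and 45.4% of all windows held it at least once, while the Hoxc11 window held none. AATCCACA or its reverse complement was found 1 time in the Hoxb3 window, in 1.37% of all windows, and in neither of the other printed windows. These matches describe letters and not binding. All 5 sites were rich in G and C, from 57.7% at a site in Hoxb4 to 62.7% at the Hoxb3 site.

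The most prominent pSmad2 signal in the clusters was the site inside Hoxb3, an anterior-group gene active in the hindbrain. Its highest point, chr11:96203482, lay within the annotated bounds of Hoxb3 and in no Hoxb3 exon, 1223 bp after the start of the nearest Hoxb3 transcript and 9464 bp before the start of Hoxb2. The printed window shared 91 bp with an exon of the antisense transcript Gm11536 (chr11:96203271-96203422). The primer pair that the study named for Hoxb4 matched inside this window, spanning 76 bp at chr11:96203460-96203535, and not at the weaker site in Hoxb4 itself. In the 1 kb around the highest point the Activin, DMSO and SB ChIP libraries held 84, 73 and 14 tags, beside 13, 14 and 10 input tags. Scaled by library totals, ChIP over input was 6.68 in Activin (exact 95% interval 3.70 to 13.1), 6.40 in DMSO (3.58 to 12.3) and 1.76 in SB (0.725 to 4.42). Activin and DMSO were thus close, with a ChIP ratio of 1.06 (0.766 to 1.47), and SB stood apart, at 0.239 of DMSO (0.124 to 0.427). The input libraries in the same place gave an SB over DMSO ratio of 0.870 (0.346 to 2.10). The site was taken from the Activin and DMSO lists, not the SB list, and centred on the highest point of the 3 ChIP libraries together. The ratios over input and between ChIP libraries are therefore descriptions. In the Activin library the median forward tag lay 113 bp before the highest point and the median reverse tag 71 bp after it, and in DMSO the places were 73 bp before and 94.5 bp after. The authors listed 83 tags for this peak in Activin, more than in 90.6% of the Activin list, and 71 in DMSO, more than in 93.6% of the DMSO list.

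The site before Hoxb13, the most posterior gene of HoxB and set apart from its neighbours, had most ChIP tags in Activin and fewest in SB. Its highest point, chr11:96051689, was 3941 bp before the Hoxb13 start in sequence with no annotated gene. The 1 kb window held 59, 31 and 11 ChIP tags under Activin, DMSO and SB, and 6, 18 and 11 input tags. ChIP was highest in Activin and lowest in SB, whereas input was lowest in Activin. ChIP over its own input was therefore 10.2 in Activin (4.40 to 28.8), 2.11 in DMSO (1.15 to 4.01) and 1.25 in SB (0.493 to 3.19). Against the 3 inputs added together, with 35 tags, the ratios were 5.21, 2.97 and 1.31. Between ChIP libraries Activin was 1.75 times DMSO (1.12 to 2.80) and 3.97 times SB (2.07 to 8.39), and SB was 0.442 of DMSO (0.200 to 0.903). These too are descriptions of a site chosen from the Activin and DMSO lists. In the test over all 500 bp bins the bin at this site passed for Activin against SB and not for Activin against DMSO (adjusted exact p = 0.868) or SB against DMSO (adjusted exact p = 0.778). Forward tags in Activin had their median 59 bp before the highest point and reverse tags 125 bp after it.

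The 1 kb windows of the other 3 sites held few tags. Inside Hoxc11, a posterior-group gene, the 1 kb around chr15:102786408 held 23, 14 and 9 ChIP tags in Activin, DMSO and SB and 9, 10 and 12 input tags. The ChIP order was the same as at the Hoxb13 site, but the Activin over SB ratio of 1.89 had an interval from 0.844 to 4.65. Before Hoxb9, the 1 kb around chr11:96131466 held 22, 26 and 18 ChIP tags and 11, 10 and 9 input tags, with ChIP over input of 2.07, 3.19 and 2.51. No order of treatments could be read in this window, since all 3 intervals between ChIP libraries spanned 1. From 500 bp to 1 kb after that point, towards the Hoxb9 start, SB held 16 ChIP tags, Activin 8 and DMSO 6, with 4, 3 and 3 in input. The SB list placed a peak of 49 tags further on, at chr11:96134000, which is 1229 bp after the Hoxb9 start, and the DMSO list one of 14 tags before it. The SB peak had more tags than 75.3% of the SB list, and it lies outside the 1 kb window and the plotted 2 kb. The bin ending at that position held 10 ChIP and 7 input tags in SB, and 2 and 3 ChIP tags in Activin and DMSO. The site in Hoxb4 was listed for SB only. Its highest point lay in the transcribed part, 1360 bp after the start and outside the coding sequence. The 1 kb window around it held 23, 7 and 17 ChIP tags and 9, 8 and 8 input tags. Activin, where no peak was listed, was thus at 1.00 times the SB level in this window (0.512 to 2.00). It was at 3.03 times the DMSO level (1.26 to 8.36). The listed SB position, chr11:96179893, 1895 bp after the start, lay just past the window. In the 500 bp before the highest point Activin, DMSO and SB held 14, 3 and 5 ChIP tags. In the 500 bp after it, towards the listed position, they held 9, 4 and 12.

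**Figure D1:**
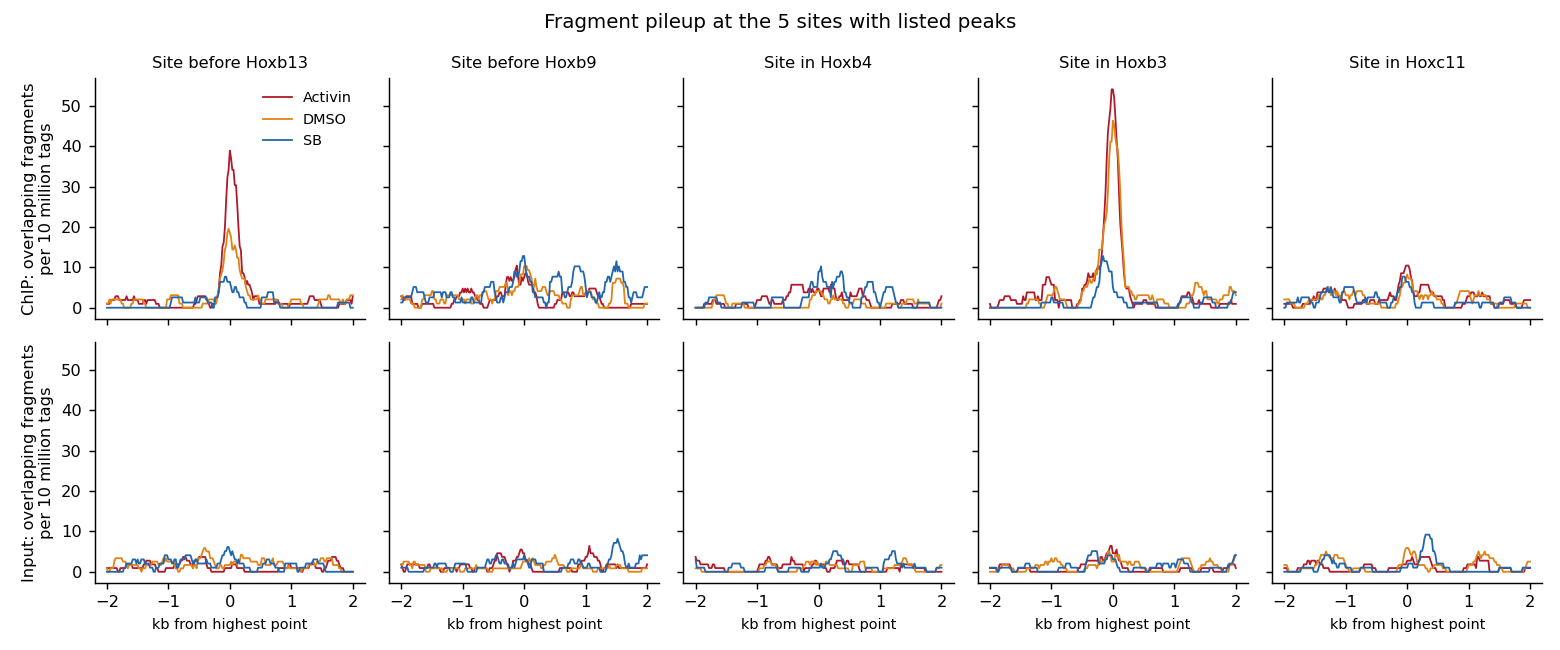
Fragments of 200 bp overlapping each position, per 10000000 tags, within 2 kb of the highest point of the 5 sites with listed peaks, in the ChIP libraries (upper row) and the input libraries (lower row) of Activin, DMSO and SB. A narrow summit stands in Activin and DMSO in Hoxb3 and in Activin before Hoxb13, with a lower one there in DMSO. Within the plotted 2 kb the other 3 sites stay low in all 6 libraries. The SB peak listed after the Hoxb9 start lies outside the plot.

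To place these sites in the whole genome, tags were counted in bins of 500 bp and ChIP was tested against input (one-sided exact binomial test, Benjamini-Hochberg adjusted over all bins with at least 10 tags). In Activin 3 of 293 tested Hox bins were called, beside 0.354% of all tested bins, in DMSO 3 of 288 beside 0.599%, and in SB 0 of 194 beside 0.809%. At an unadjusted p under 0.05 there were 21, 14 and 13 of these Hox bins. The share of all bins at that level is not given here, so these counts are not read as signal. The same 3 bins were called in Activin and DMSO, 1 at the Hoxb13 site and 2 at the Hoxb3 site. The bin starting at 96051501 held 52, 27 and 9 ChIP tags against 2, 7 and 8 input tags (adjusted exact p = 1.4e-10 in Activin and 0.0117 in DMSO). The bin starting at 96203001 held 58, 41 and 11 against 10, 8 and 9 (adjusted exact p = 9.1e-07 and 2.2e-05). Its neighbour starting at 96203501 held 25, 32 and 3 against 3, 6 and 1 (adjusted exact p = 0.0049 and 0.00038). All 3 held fewer ChIP tags in SB than in Activin or DMSO. They were called in Activin and DMSO, and SB was the smallest ChIP library, so these tag counts are a description.

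Between the ChIP libraries (two-sided exact binomial test, adjusted in the same way), 2 of 203 tested Hox bins were higher in Activin than in SB, beside 0.0410% of all bins, and 0 were lower, beside 0.101%. They were the Hoxb13 bin, 4.28 times higher (adjusted exact p = 0.00925), and the first Hoxb3 bin, 3.91 times higher (adjusted exact p = 0.00769), which was lost with tags not moved (3.37, adjusted exact p = 0.0645). Of 172 bins tested for SB against DMSO, 1 was lower, beside 0.0148%, and 0 were higher, beside 0.00866%. It was the second Hoxb3 bin, where SB was at 0.117 of DMSO (adjusted exact p = 0.0364). Activin and DMSO differed in 0 of 249 Hox bins in either direction, beside 0.00054% higher and 0.00027% lower, with 5 higher and 4 lower at an unadjusted p under 0.05. Input libraries differed in 0 Hox bins in any of the 3 pairs, with 3 to 7 Hox bins in each pair and direction at an unadjusted p under 0.05 except Activin over SB, with 1.

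Outside these sites no 500 bp bin of the clusters was called over input. In HoxA a pair of bins tied for the most tags over the 3 ChIP libraries. The one starting at 52142001 held 5, 14 and 10 ChIP tags and 7, 13 and 8 input tags, the one starting at 52155501 held 14, 11 and 4 against 8, 10 and 4, and the next, starting at 52179501, held 11, 12 and 4 against 6, 3 and 8. The last had a DMSO ratio of 4.91 (1.32 to 27.1) that did not pass the test (adjusted exact p = 0.290). In HoxD the fullest bin, starting at 74573501, held 10, 7 and 12 against 8, 6 and 5. The next of HoxD, starting at 74521501 and 74519501, held 9, 8 and 6 against 8, 6 and 6, and 8, 8 and 4 against 5, 14 and 6. In HoxC it started at 102786001, in Hoxc11, with 15, 8 and 7 against 4, 7 and 1, followed by bins starting at 102785001, with 8, 9 and 9 against 1, 10 and 6, and at 102797501, with 14, 9 and 3 against 12, 6 and 14. None of the 3 fullest bins of HoxA, HoxC or HoxD was called. In HoxB the fullest bins were the Hoxb3 pair and a bin of the Hoxb9 site starting at 96131001, with 14, 14 and 11 against 10, 3 and 6.

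**Figure D2:**
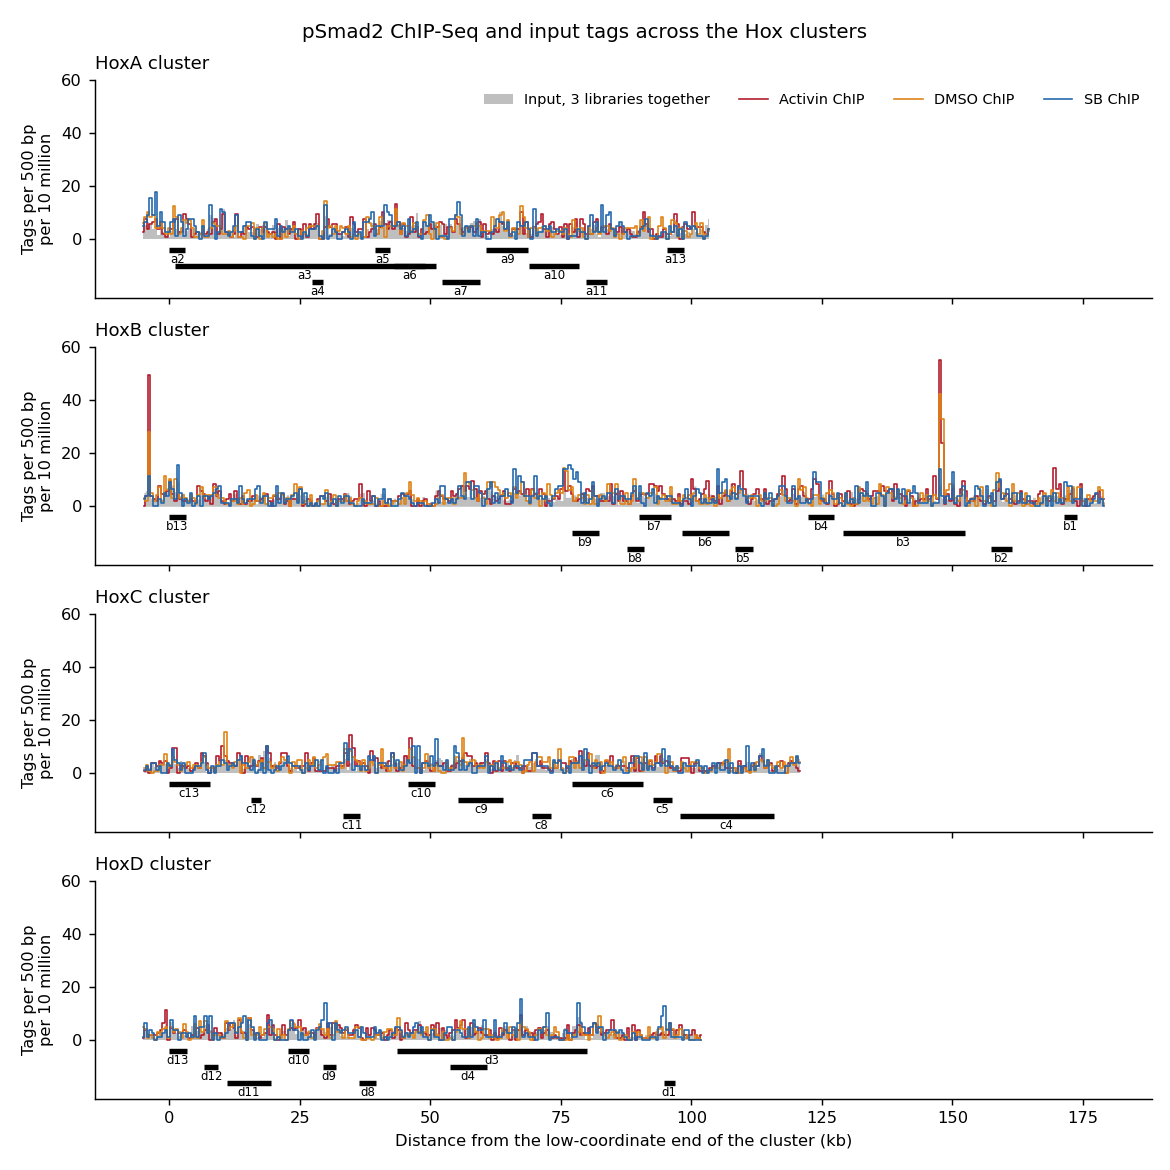
Tags per 500 bp bin, per 10000000 tags of the library, along each cluster and 5 kb on each side, against the distance in kb from the low-coordinate end of the cluster. Lines are the Activin, DMSO and SB ChIP libraries, the grey area is the 3 input libraries together, and black bars are gene bounds (a2 stands for Hoxa2). The summits before Hoxb13 and in Hoxb3 rise above 40 in Activin, and elsewhere ChIP and input run at a like height.

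Taken whole, the clusters were dense in tags in ChIP and input alike. From first to last gene described they spanned 98.5 kb for HoxA (chr6:52112350-52210874), 174 kb for HoxB (chr11:96055630-96229570), 116 kb for HoxC (chr15:102751534-102867274) and 96.8 kb for HoxD (chr2:74506367-74603200), with GC contents of 48.9% in HoxB, 49.0% in HoxC, 49.5% in HoxD and slightly more in HoxA. Tag density was 1.42 to 2.03 times the genome mean in the ChIP libraries and 1.54 to 2.06 times in the input libraries. High density was thus shared by DNA that had seen no antibody.

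With libraries scaled by their totals, HoxB was the only cluster whose Activin interval lay above 1. Under Activin, DMSO and SB it held 1443, 1235 and 1001 ChIP tags and 1275, 1434 and 1172 input tags, which gave ratios of 1.17 (1.08 to 1.26), 1.06 (0.978 to 1.14) and 1.07 (0.983 to 1.17). Without the 1 kb of the Hoxb3 site these became 1.11 (1.03 to 1.20), 1.00 (0.928 to 1.09) and 1.07 (0.977 to 1.16). HoxA gave 1.07, 0.935 and 1.03 and HoxD 0.962, 0.923 and 0.960, with all 6 intervals spanning 1. HoxC gave 1.05, 1.06 and 0.872, the last with an interval of 0.782 to 0.972. Scaling by GC content instead gave Activin ratios over input of 1.15, 1.26, 1.12 and 1.03 for HoxA, HoxB, HoxC and HoxD. Among 25013 windows of 100 kb in the genome, the share with a lower ratio ran from 22.2% for HoxC in SB to 90.2% for HoxB in Activin.

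Bins elsewhere in the genome with the GC content of the clusters gave an expected ratio for each cluster and treatment. These were 0.930 to 0.937 in Activin, 0.901 to 0.910 in DMSO and 0.951 to 0.984 in SB. The observed ratios ran from 0.962 to 1.17 in Activin, 0.923 to 1.06 in DMSO and 0.872 to 1.07 in SB. The part of GC content in the order of the clusters was not tested. The 100 kb on the Hoxa2 side of the HoxA span was higher than the span. It gave 1.35, 1.21 and 1.30 under Activin, DMSO and SB, with all 3 intervals above 1. The span covers only the genes described, so that stretch is not taken as lying outside the cluster. Between treatments the ChIP ratios of whole clusters ran from 0.900 for HoxC in SB over DMSO (0.806 to 1.00) to 1.15 for HoxD in SB over DMSO (1.01 to 1.30). With libraries scaled by GC content those became 0.795 and 0.969, and the 4 Activin over SB ratios rose from 1.00, 1.07, 1.12 and 0.966 to 1.19, 1.18, 1.25 and 1.15 for HoxA, HoxB, HoxC and HoxD.

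**Figure D3:**
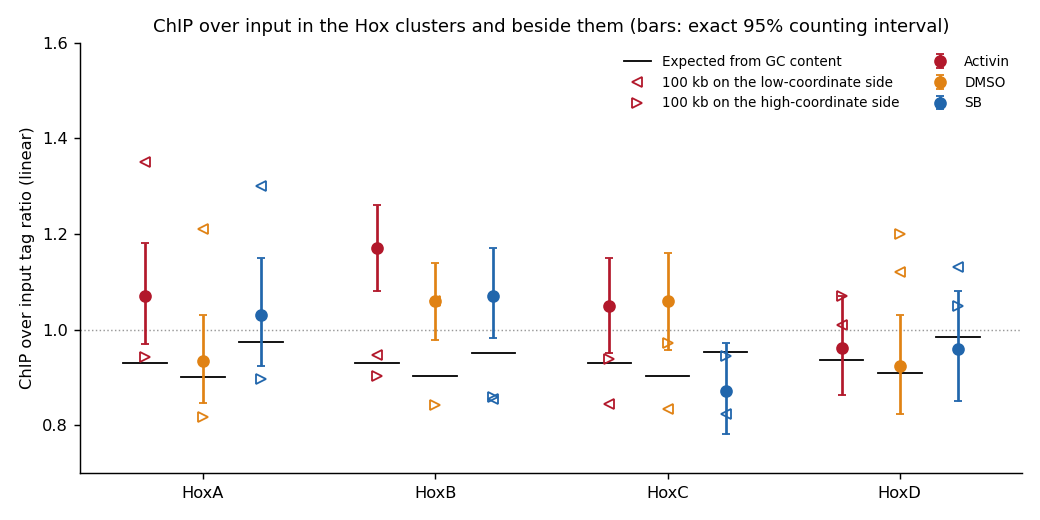
ChIP over input tag ratio (linear axis) of each cluster in Activin, DMSO and SB with its exact 95% counting interval, the ratio expected from GC content (black lines) and the ratio of the 100 kb on each side (open triangles). The filled points lie between 0.872 and 1.17, and the open triangles on the Hoxa2 side of HoxA lie at 1.21 to 1.35.

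Gene by gene, the regions were the gene bounds and 5 kb on each side. They overlap, since 34 of 38 share sequence with another and the sum of 677 kb covers 448 kb, so neighbours are not independent. Against input (two-sided exact binomial test, adjusted over all genes with at least 20 tags) 3 of 38 were called higher in Activin, beside 17.0% of all genes, 3 in DMSO beside 23.6%, and 2 in SB beside 23.0%. Called lower were 0 in each, beside 4.92%, 9.26% and 5.71%, with 1, 2 and 2 lower at an unadjusted p under 0.05. The Hox shares were thus under those of all genes. A call also depends on the number of tags in a region, for which the genes were not matched. The median Hox ratio was 1.11, 0.981 and 0.988 in Activin, DMSO and SB, beside 1.03, 1.04 and 1.06 over all tested genes.

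In the anterior group (paralog groups 1 to 3, genes of the hindbrain and upper trunk), Hoxb3 was called in 2 treatments. It held 341, 280 and 196 ChIP tags and 260, 267 and 211 input tags, with ratios of 1.36 in Activin (adjusted exact p = 0.00214), 1.29 in DMSO (adjusted exact p = 0.0146) and 1.16 in SB (adjusted exact p = 0.284). Without the 1 kb of its site the ratios were 1.08, 1.00 and 1.14, and the unadjusted exact p was 0.05 or more in each (0.438, 1.00 and 0.234). Hoxa2, which patterns the second branchial arch, held 119, 129 and 128 ChIP tags and 106, 118 and 104 input tags. Its ratio was 1.54 in SB (adjusted exact p = 0.00633), 1.34 in DMSO (adjusted exact p = 0.0708) and 1.16 in Activin (adjusted exact p = 0.522). In SB the call for Hoxa2 was lost when the gene bounds were used with no flank.

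In the central group (paralog groups 4 to 8), Hoxb6 was the highest gene of HoxB in Activin, with 182, 124 and 110 ChIP tags and 137, 198 and 163 input tags. Its ratio was 1.37 in Activin (adjusted exact p = 0.0297), 0.768 in DMSO (adjusted exact p = 0.0673) and 0.846 in SB (adjusted exact p = 0.368). For Hoxb6 input was lowest in Activin, where ChIP was highest, and with the 3 inputs added together the Activin call was lost. Hoxb8 held 120, 107 and 76 ChIP tags and 103, 90 and 123 input tags and was called in DMSO, at 1.46 (adjusted exact p = 0.0331). That call was lost with the inputs pooled (1.14, adjusted exact p = 0.421), with no flank (1.37) and with tags not moved (1.41). Hoxb4 held 129, 94 and 84 ChIP tags and 118, 88 and 78 input tags. Its ratios of 1.13, 1.31 and 1.35 did not pass the test (adjusted exact p = 0.602, 0.178 and 0.166), and its ChIP ratio of Activin to SB was 1.14 (adjusted exact p = 0.685). The Hoxb4 region ended before the Hoxb3 site where the primer pair matched, and the study linked peaks to genes over a longer distance than used here.

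In the posterior group (paralog groups 9 to 13), Hoxb9 had the highest ratio of any Hox gene, 1.71 in DMSO. It held 131, 137 and 138 ChIP tags and 105, 98 and 123 input tags, with adjusted exact p = 0.00035 in DMSO, 0.0279 in SB (ratio 1.41) and 0.179 in Activin (ratio 1.29). With no flank both calls were lost, at 1.19 in DMSO (adjusted exact p = 0.740) and 1.36 in SB (adjusted exact p = 0.323), and the SB call also with all tags (1.20). With the 1 kb site before it left out, its DMSO ratio was 1.55 (1.16 to 2.07). Hoxa10, known for its part in uterine and lumbar development, held 180, 141 and 118 against 138, 188 and 124 and was called in Activin at 1.35 (adjusted exact p = 0.0441). The call was lost with no flank (1.18), all tags (1.29), tags not moved (1.33) and the inputs pooled (1.24). The lowest Activin ratio of the 38 genes was 0.731 for Hoxc10, with 106 ChIP and 150 input tags (adjusted exact p = 0.0646). Hoxb13 held 151, 140 and 78 against 123, 151 and 111, and its ratio of 1.27 in Activin (adjusted exact p = 0.172) became 0.813 (0.612 to 1.08) without the site before it.

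The remaining extremes of each cluster did not pass the test. In Activin HoxA was lowest at Hoxa7 (0.927), HoxB at Hoxb2 (0.958), and HoxD ran from Hoxd12 (0.818) to Hoxd9 (1.19), while HoxC was highest at Hoxc13 (1.25). In DMSO the lowest were Hoxa11 (0.787), Hoxb5 (0.729), Hoxc10 (0.900) and Hoxd4 (0.805), and the highest of HoxA, HoxC and HoxD were Hoxa2 (1.34), Hoxc11 (1.39) and Hoxd10 (1.13). In SB the lowest were Hoxa4 (0.815), Hoxb7 (0.747), Hoxc12 (0.726) and Hoxd10 (0.791), and HoxC and HoxD were highest at Hoxc11 (1.17) and Hoxd8 (1.19). Median ratios by paralog position were 1.05, 1.13 and 1.13 for the anterior, central and posterior genes under Activin. With DMSO the same medians were 0.960, 1.08 and 0.968, and with SB they were 1.10, 0.856 and 1.01. No one order along the axis was shared by the 3 treatments.

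**Figure D4:**
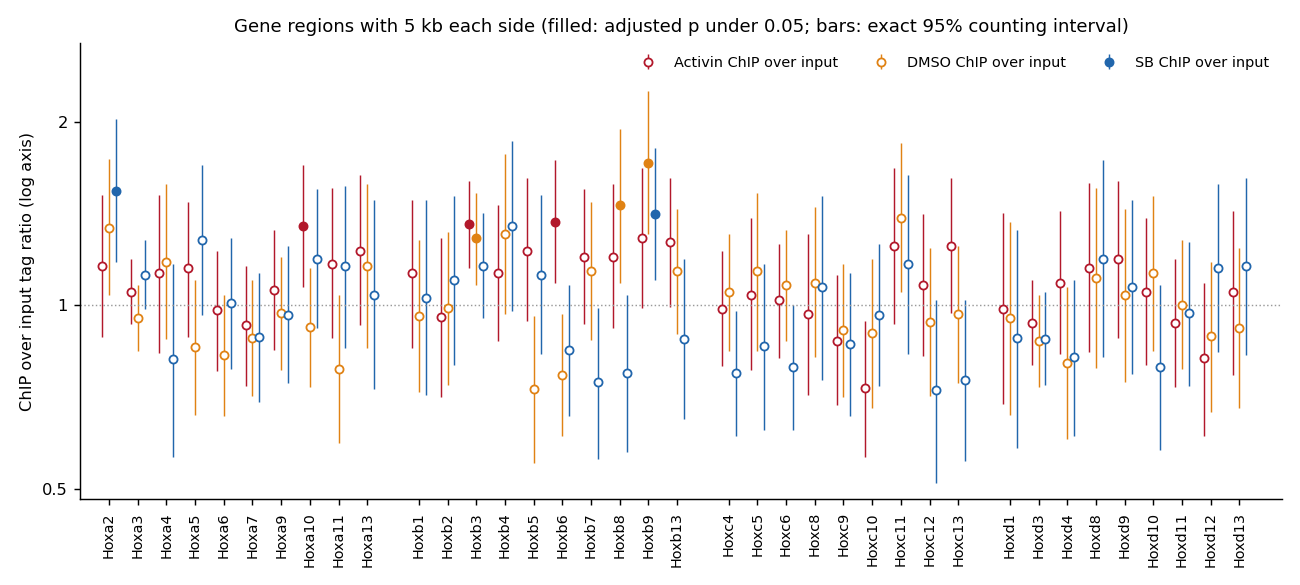
ChIP over input tag ratio (log axis) of the 38 gene regions with 5 kb on each side, by cluster and paralog number, in Activin, DMSO and SB with exact 95% counting intervals. Filled points mark adjusted p under 0.05, which 8 points reach, 6 of them in HoxB.

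Between treatments few gene regions differed. Activin against DMSO gave 0 Hox genes higher, beside 0.266% of all genes, and 0 lower, beside 1.89%, and SB against DMSO 0 higher, beside 3.69%, and 0 lower, beside 1.02%. At an unadjusted p under 0.05 there were 2 and 5 of 38 Hox genes in these comparisons, beside 3 and 7 in the input libraries of the same pairs. Activin against SB gave 1 higher, beside 1.46%, and 2 lower, beside 9.98%. Hoxb3 was 1.29 times higher in Activin (adjusted exact p = 0.0454), and without its site the ratio was 1.05 (0.862 to 1.27). Hoxa2 was at 0.689 (adjusted exact p = 0.0404) and Hoxb9 at 0.703 (adjusted exact p = 0.0440) of their SB level. In the input libraries the same ratio was 0.916 (0.692 to 1.21) for Hoxa2 and 0.767 (0.585 to 1.00) for Hoxb9. Without the 1 kb window before Hoxb9, the Hoxb9 ratio was 0.673 (0.514 to 0.879). That window did not hold the SB peak listed at chr11:96134000, which stayed in the region, so the part of that peak was not tested. With libraries scaled by GC content, the split of 1 higher and 2 lower turned to 4 higher and 0 lower. The share of all genes called under that scaling is not given here. The input libraries gave 0 calls in all 3 pairs, with 3, 7 and 3 Hox genes at an unadjusted p under 0.05.

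No Hox start-site window was called in the setting used here, though 1 was called higher in SB with 1 kb on each side and 2 with the inputs pooled. The shares of all genes called in those alternatives are not given here. In the 500 bp on each side of the annotated start, 0 of 30, 32 and 33 tested Hox genes were called higher in Activin, DMSO and SB, beside 1.05%, 1.65% and 3.18% of all genes, and 0 lower, beside 0.0927%, 0.0954% and 0.0749%. The unadjusted exact p was under 0.05 for 0, 1 and 3 of them. In SB these were Hoxa11 (14 ChIP and 5 input tags), Hoxb9 (24 and 13) and Hoxa3 (4 and 17). The annotated bounds of Hoxa3 (chr6:52113358-52163338) span Hoxa4, Hoxa5 and Hoxa6, so its annotated start may not be the one in use. Over all 38 starts together the 500 bp after the start gave ratios of 1.05 in Activin (0.837 to 1.31), 0.986 (0.791 to 1.23) in DMSO and 1.05 in SB (0.837 to 1.31). Over all 22208 genes the same stretch gave 1.08, 1.08 and 1.30 (1.29 to 1.31) in SB, higher in SB than elsewhere around the start.

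**Figure D5:**
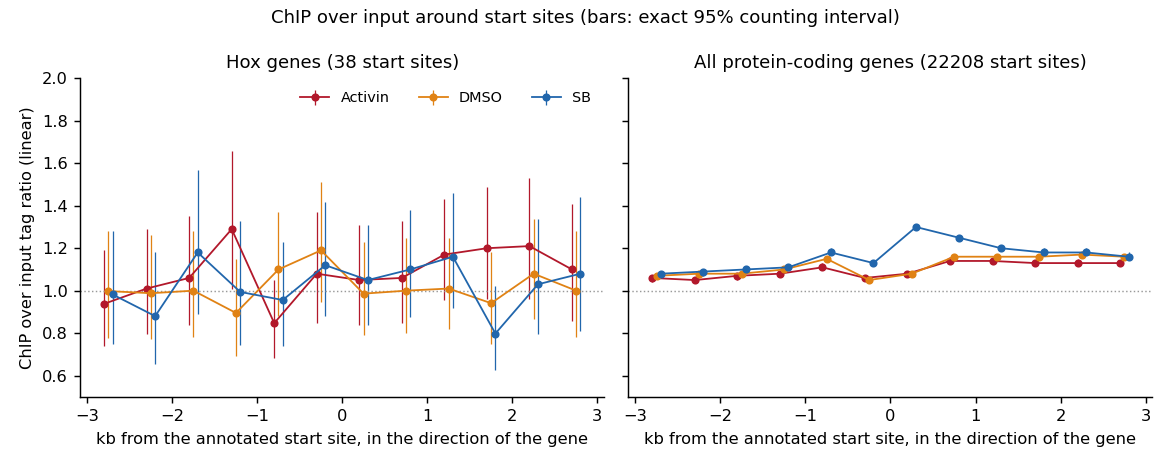
ChIP over input tag ratio (linear axis) in steps of 500 bp within 3 kb of the annotated start, for the 38 Hox genes (left) and all 22208 protein-coding genes (right), in Activin, DMSO and SB with exact 95% counting intervals. The Hox profile scatters about 1, and the profile of all genes peaks at 1.30 just after the start in SB.

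Other gene lists gave the Hox values a frame, beside 17.0%, 23.6% and 23.0% of all genes called higher in Activin, DMSO and SB and 4.92%, 9.26% and 5.71% lower. Of 44 other homeobox genes of developmental families such as Dlx, Irx, Lhx and Nkx, 1, 4 and 2 were called higher under Activin, DMSO and SB and 2, 7 and 1 lower, with medians of 0.934, 0.908 and 0.934. The 6 ParaHox genes, the sister group of the Hox genes that includes Cdx2 and Pdx1, had medians of 0.887, 0.728 and 0.942 with 0 called higher in any treatment and 1, 2 and 0 lower. Of 9 genes for Hox cofactors of the Pbx, Meis and Pknox families, 1, 2 and 2 were called higher and 2, 2 and 1 lower, with medians of 1.05, 0.916 and 0.968. Evx1 and Evx2, the homeobox genes at the posterior ends of HoxA and HoxD, gave 0.818, 0.829 and 0.685 and 0.879, 1.31 and 1.22, and only Evx1 in SB was called (lower, adjusted exact p = 0.0243). Genes for regulators of the clusters were also counted. Of 13 Polycomb genes 8, 9 and 8 were called higher and 0 lower, with medians of 1.41, 1.45 and 1.44, Suz12, a core subunit of the Polycomb H3K27 methyltransferase complex, reaching 1.88, 1.95 and 2.27. Of 10 genes for Trithorax-type methyltransferase subunits and H3K27 demethylases 7, 9 and 9 were called higher and 0 lower, with medians of 1.30, 1.38 and 1.46.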

How the data were processed

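pSmad2 ChIP and input tags of 35 bases were deposited by the authors as positions on mm9, the build per the submitters' processing notes. The aligner is not given in the sources used here. Peaks were called by the authors with MACS on each ChIP library against its own input, and the deposited peak lists give tag counts per peak. Here tags were counted once per position and strand, moved to the middle of a 200 bp fragment and scaled by library total. Genes were taken from GENCODE on NCBIM37 (mm9), with 5000 bp on each side. Exact binomial tests compared the tag counts of 2 libraries in gene regions (at least 20 tags), start-site windows and 500 bp bins (at least 10 tags each), with Benjamini-Hochberg adjustment over all genes or bins and a threshold of 0.05. No replicate existed, so no spread between replicates could be estimated, and intervals cover counting error only. Counts at an unadjusted p under 0.05 are given without the share of all genes or bins at that level. Tags that shared a position and strand were counted once, since PCR copies are not independent molecules.

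Values are given for every Hox gene called in gene regions or start-site windows, for the highest and lowest ratio of each cluster, for the 3 fullest bins of each cluster and for Hoxb4, which the tables of the study list. Members and lists were chosen with earlier results of these data known. The naming rule finds 39 Hox genes, of which 38 are described and 1 is not reported here. Alternatives changed the duplicates kept, the fragment shift, flanks, bin size, input, scaling and threshold. Scripts were tested on simulated data and used Python 3.11.15, NumPy 2.4.6, SciPy 1.17.1, pandas 2.3.3 and matplotlib 3.10.9.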

Additional observations from a re-analysis of the deposited data

Results flagged for a closer look

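Between Activin and SB, or SB and DMSO, 6 results differed by an exact binomial test of the ChIP tags, adjusted over all genes or bins, each from 1 library against 1. The bin of HoxB starting at 96051501, before Hoxb13, had 4.28 times the SB level in Activin (adjusted exact p = 0.00925). In Hoxb3, the bin starting at 96203001 had 3.91 times the SB level in Activin (adjusted exact p = 0.00769), and in the bin starting at 96203501 SB was at 0.117 of DMSO (adjusted exact p = 0.0364). The whole Hoxb3 region was at 1.29 in Activin over SB (adjusted exact p = 0.0454). Hoxa2, at 0.689 (adjusted exact p = 0.0404), and Hoxb9, at 0.703 (adjusted exact p = 0.0440), were lower in Activin than in SB. Input tags of Hoxb9 leaned the same way, at 0.767 (0.585 to 1.00), while those of Hoxa2 were at 0.916 (0.692 to 1.21). The Hoxb9 call was lost with no flank, at a threshold of 0.01, with all tags and with GC scaling. For Hoxa2 the call was lost at 0.01 and with GC scaling, and the ratio reversed to 1.04 with no flank.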

How the results depend on the processing

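No paired analysis was possible because each treatment had 1 ChIP and 1 input library, and for the same reason no library could be left out. Of the alternative values for clusters and for counts of calls, 270 stayed close to those reported and 48 moved. Scaling by GC content gave ChIP over input in DMSO of 1.04 for HoxA, 1.17 for HoxB and 1.17 for HoxC. It gave SB over DMSO ChIP ratios of 0.888, 0.897, 0.795 and 0.969 and Activin over SB ratios of 1.19, 1.18, 1.25 and 1.15 for HoxA, HoxB, HoxC and HoxD. Gene regions called higher than input in Activin were 1 at a threshold of 0.01 and 1 with all tags, and 1 was lower with no flank, with all tags or with tags not moved. In DMSO 1 was higher with no flank and 1 at 0.01, 5 with scaling by tags outside peaks and 6 with GC scaling, and 2 were lower with all tags and 2 with the inputs pooled. In SB 0 were higher with no flank, 1 at 0.01 and 1 with all tags, and 1 was lower with no flank, 4 with all tags and 1 with the inputs pooled. Start-site windows called higher in SB were 1 with 1 kb each side and 2 with the inputs pooled. Between treatments all tags gave 1 gene region higher in Activin than DMSO, and 1 higher and 1 lower in SB than DMSO. Gene regions higher in Activin than SB were 0 at 0.01 and 0 with scaling by tags outside peaks, 5 with all tags, 4 with GC scaling and 2 with tags not moved, and those lower were 0 with no flank, at 0.01 and with GC scaling and 1 with all tags. Bins of 1000 bp gave 1 call over input in DMSO. Bins lower in SB than DMSO were 0 at 0.01 and 0 with tags not moved, 2 with all tags and 2 with GC scaling, and 1 was higher with all tags. With tags not moved the Activin over SB call of the bin starting at 96203001 was lost (3.37). With no flank the Activin over SB ratio of Hoxa2 reversed to 1.04. The shares of all genes or bins called under these alternatives are not given here, and the cause of these changes was not tested.

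Leaving out the 1 kb around the Hoxb3 site was chosen after seeing the data, and it ended the calls of the Hoxb3 region in Activin (1.08), DMSO (1.00) and Activin over SB (1.05, unadjusted). The Activin calls at all 3 bins over input held under all 7 alternatives. With a median of 2 to 4 ChIP tags per bin, weak sites were not detectable at this depth.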
